A study of Mus musculus with 8 samples.

Results

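The genes described here encode the signalling chains of the T cell receptor complex, its CD4 coreceptor and 3 surface proteins that tune its signal. They are the 8 rows with the symbols Cd3d, Cd3e, Cd3g, Cd247, Cd4, Cd2, Cd5 and Cd6, out of 21524 gene symbols in the deposited table. RNA came from regulatory T cells (Tregs), the CD4 T cells that restrain immune responses, sorted by flow cytometry from mouse spleen. The treatment label was IL-2 for 4 libraries (numbers 41 to 44) and Ctrl for the other 4 (numbers 45 to 48), called control below. The series text describes a modified IL-2 given with CTLA-4 Ig to C57BL/6 recipients of BALB/c hearts or kidneys. Which form of IL-2 these libraries stand for, what the control animals received, and the strain, age, graft, gate and number of animals are not given in the labels. Nor do they say that the libraries came from separate animals, so p-values measure the spread between libraries, which may be technical.

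The T cell receptor binds peptide on MHC molecules through its alpha and beta chains, which have no signalling motif of their own. The signal passes through CD3 delta, epsilon and gamma (Cd3d, Cd3e, Cd3g) and the zeta chain (Cd247), whose cytoplasmic tails are phosphorylated by the kinase Lck and then recruit the kinase ZAP-70. CD4 binds MHC class II and carries Lck to the complex, CD2 adheres to CD48 on other cells and adds to the signal, and CD5 and CD6 are related scavenger-receptor proteins whose tails mainly restrain it. Tregs need this signal to keep up suppression, and IL-2 is their main survival cytokine.

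RefSeq promoter windows (build GRCm38.p6) were at hand for 5 of the 8 genes: Cd3d, Cd3e, Cd3g, Cd247 and Cd5. The sequencing reads were handled with build GRCm39, so the coordinates below belong to GRCm38.p6 alone. The windows of Cd5, whose transcript fell, and of the neighbouring Cd3d and Cd3g, whose transcripts did not pass the test, are shown as the 250 bases before the annotated start, 5′ to 3′ on the gene's own strand. Cd5 lies at chr19:10738975-10739224 on the minus strand, Cd3d at chr9:44981536-44981785 on the plus strand and Cd3g at chr9:44980432-44980681 on the minus strand. Capitals mark matches on either strand to TTCNNNGAA (STAT factors), AGGAAG (Ets factors), TGTGGT (Runx factors) or CAGNTG (E-box factors).
Cd5: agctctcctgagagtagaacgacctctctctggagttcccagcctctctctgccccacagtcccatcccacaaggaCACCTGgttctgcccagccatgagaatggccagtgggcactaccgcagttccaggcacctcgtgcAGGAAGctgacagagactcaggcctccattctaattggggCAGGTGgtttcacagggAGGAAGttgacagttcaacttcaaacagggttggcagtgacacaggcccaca
Cd3d: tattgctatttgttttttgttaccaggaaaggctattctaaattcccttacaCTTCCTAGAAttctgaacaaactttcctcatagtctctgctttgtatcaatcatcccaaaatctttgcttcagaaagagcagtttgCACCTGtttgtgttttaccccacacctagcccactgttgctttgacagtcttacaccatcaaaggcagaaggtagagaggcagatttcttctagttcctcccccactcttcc
Cd3g: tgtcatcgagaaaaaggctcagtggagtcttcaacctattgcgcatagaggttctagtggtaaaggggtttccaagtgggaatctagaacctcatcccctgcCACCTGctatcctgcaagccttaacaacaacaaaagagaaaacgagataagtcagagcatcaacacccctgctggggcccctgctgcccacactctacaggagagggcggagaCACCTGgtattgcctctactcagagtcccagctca
The Cd5 window held 2 AGGAAG and 2 CAGNTG matches, the Cd3d window 1 TTCNNNGAA match that overlaps 1 AGGAAG match and 1 CAGNTG match, and the Cd3g window 2 CAGNTG matches. Among 32851 windows of the same length in the RefSeq table, 7.02% held TTCNNNGAA, 29.5% AGGAAG, 14.0% TGTGGT and 44.8% CAGNTG. These are letter matches and not sites shown to be bound.

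Expression is given as normalised reads, recovered from the authors' variance-stabilised log2 values, and differences are IL-2 minus control on the deposited log2 scale, which understates fold changes. Depth ran from 4953546 to 6399417 recovered reads per library. The Treg label was checked against 6 markers, which summed to 37863 to 43593 normalised reads in IL-2 libraries and 25081 to 25686 in control libraries. The difference lay in Il2ra, Tnfrsf18 and Lrrc32, which rose, while the defining factor Foxp3 had 1883 ± 262 reads in IL-2 libraries and 1537 ± 290 in control libraries (SD, n = 4 each) and, with Ctla4 and Ikzf2, did not pass. Summed B and plasma cell markers held 127 to 253 reads with IL-2 and 490 to 617 in controls, and NK and NKT markers 0 to 34.9 and 66.9 to 164; markers of myeloid cells are given beside Cd4. The B cell gene Ms4a1 reached at most 2.73 reads in any library. The 9 mitochondrially encoded transcripts summed to 89314 to 98030 reads with IL-2 and 75356 to 82652 in controls. Of the 9, 4 passed as higher and 0 as lower, and mt-Co2 had 917 ± 998 reads with IL-2 and 1485 ± 816 in controls. Each of these 4 sums had an exact permutation p of 0.0286, the smallest possible with 4 libraries per group, or 0.0514 adjusted over 9 lists. The Y-linked transcript Ddx3y was at 0 in 2 IL-2 libraries and 1 control library. It was present in the rest, at 345 to 397 reads with IL-2 and 216 to 460 in controls. Each group thus held libraries with and without male cells, but how many animals they stand for is not given. The part of these differences in the results below was not tested, except for Ddx3y, which was added to the fit.

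The transcripts of the 4 signalling chains did not pass the test, whereas Cd4, Cd5 and Cd6 fell and Cd2 rose with IL-2. All 8 genes passed the filter on low values, and 4 of them passed limma at an adjusted p of 0.05 over 5261 genes, 1 higher and 3 lower. Over all tested genes 31.4% passed, 16.8% higher and 14.6% lower. The same 4 genes had groups that did not overlap, as did 31.5% of tested genes. The median difference of the 8 genes was -0.14, against -0.01 over all tested genes. In bulk RNA, fewer cells with a transcript and less of it per cell cannot be told apart.

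**Figure D1:**
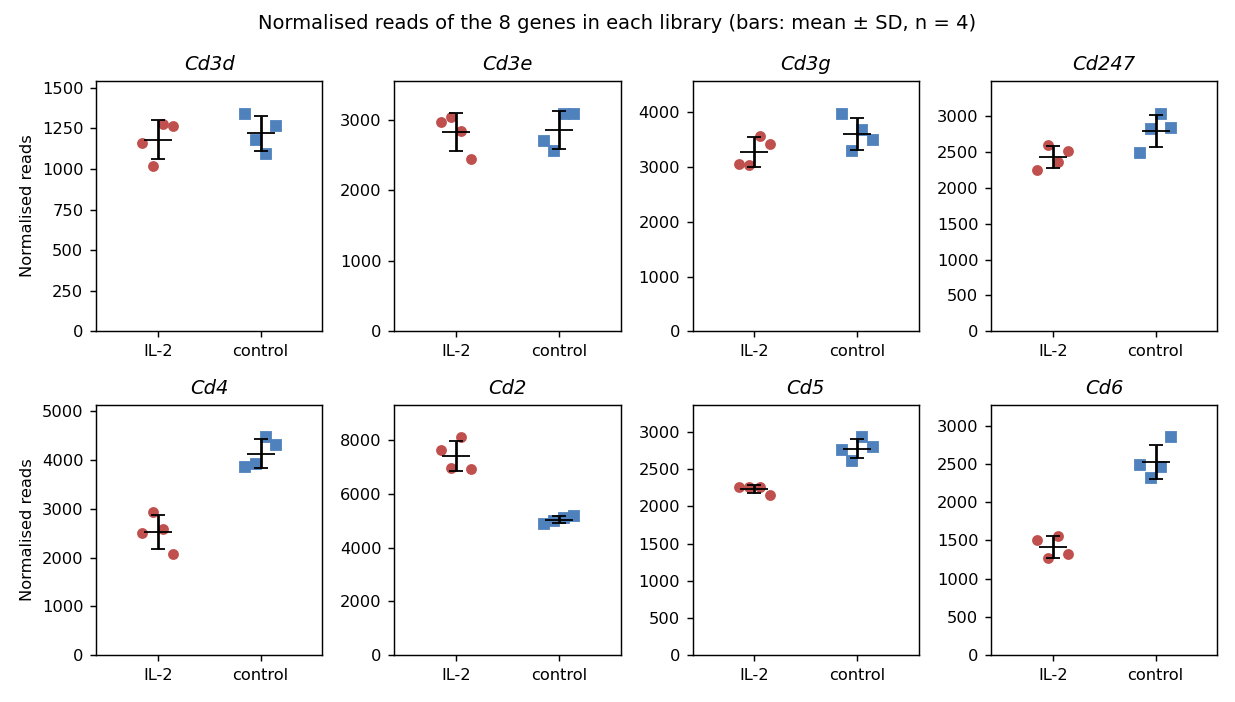
Normalised reads (vertical axes, each from 0) of the 8 genes in the 4 IL-2 libraries (red circles) and the 4 control libraries (blue squares), with the mean and SD of each group in black. The groups overlap for Cd3d, Cd3e, Cd3g and Cd247 and stand apart for Cd4, Cd2, Cd5 and Cd6, where Cd2 alone is higher with IL-2.

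Cd3d, which encodes CD3 delta, had 1162, 1018, 1276 and 1268 normalised reads in IL-2 libraries 41 to 44, against 1341, 1181, 1093 and 1268 in control libraries 45 to 48. The groups overlapped almost fully, and the difference was -0.03 ± 0.06 SE (limma adjusted p = 0.744). Cd3e, which encodes CD3 epsilon, the chain that pairs with both delta and gamma, had 2962, 3044, 2847 and 2444 reads with IL-2, against 2698, 2556, 3084 and 3087 in controls. Library 44 was the lowest of all 8 for Cd3e, and the difference was -0.01 ± 0.07 SE (adjusted p = 0.913). The ratio of IL-2 to control on log2 reads had a 95% interval of 0.835 to 1.12 for Cd3d and 0.864 to 1.13 for Cd3e, which bounds the change these libraries could have missed.

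Cd3g, which encodes CD3 gamma, had 3062, 3032, 3576 and 3428 normalised reads in IL-2 libraries 41 to 44, against 3978, 3294, 3675 and 3498 in control libraries 45 to 48. Its 2 lowest values were both from IL-2 libraries, but the groups overlapped (difference -0.12 ± 0.07 SE, limma adjusted p = 0.201; ratio interval 0.804 to 1.02). Cd247, the zeta chain that holds the largest share of the complex's signalling motifs, had 2252, 2606, 2366 and 2519 reads with IL-2, against 2491, 2822, 3039 and 2837 in controls. The overlap rested on control library 45, which lay below 2 of the IL-2 libraries. The difference of Cd247 was -0.16 ± 0.06 SE with an adjusted p of 0.0720 in limma and an unadjusted p of 0.0253. It passed as a fall without control library 45 (-0.20, adjusted p = 0.0276), after quantile normalization (-0.18, adjusted p = 0.0353) and with array weights (-0.17, adjusted p = 0.0415).

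Together Cd3d, Cd3e and Cd3g held 7280 ± 282 normalised reads in the IL-2 group and 7688 ± 445 in the control group (SD, n = 4 each), with a two-sided exact permutation p = 0.200 over 70 splits. The 3 genes lie next to each other on chromosome 9 in GRCm38.p6, yet they did not vary as a unit between libraries. The log2 ratio of Cd3g to Cd3e ran from -0.01 to 0.49 in IL-2 libraries and from 0.18 to 0.56 in control libraries. That of Cd3d to Cd3g was steadier within the IL-2 group, from -1.57 to -1.40, against -1.75 to -1.46 in controls. The smallest p among the 3 ratios of these chains was that of Cd3d over Cd3g (exact permutation p = 0.314).

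Cd4, the gene of the coreceptor that defines the helper lineage to which Tregs belong, fell with IL-2. It had 2507, 2927, 2591 and 2067 normalised reads in IL-2 libraries 41 to 44, against 3851, 3916, 4468 and 4308 in control libraries 45 to 48. The highest IL-2 library lay well below the lowest control. The group means were 2523 ± 354 and 4136 ± 300 (SD, n = 4 each), 1.64-fold lower with IL-2, with a difference of -0.58 ± 0.08 SE (limma adjusted p = 1.49e-04). On that scale it was the 52nd largest fall of 5261 genes. Library 44 was the lowest, and the difference without it was -0.51, the smallest among the fits that left out a library. IL-2 libraries also varied more, with a coefficient of variation of 14.0% against 7.24% in controls.

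Macrophages and some dendritic cells can also carry Cd4 transcript, and the summed markers of such myeloid cells moved with it, through 1 gene for the most part. Its 10 genes summed to 993 to 1248 normalised reads with IL-2, against 1831 to 2073 in controls (exact permutation p = 0.0286, 0.0514 after adjustment over 9 lists). Of that sum Ctss, a lysosomal protease gene, made up 847 ± 121 with IL-2 and 1663 ± 140 in controls. The other 9 genes, summed after this was seen, held 241 to 305 reads with IL-2 and 256 to 320 in controls (exact permutation p = 0.343), of which Cst3 made up 199.6 ± 12.8 and 195 ± 23.0 and Itgam 63.4 ± 35.9 and 64.4 ± 25.5. Cst3 and Itgam made up most of that sum, so it says little about markers with few reads. Among those, Siglech and Clec9a were at 0 in all 8 libraries. Lyz2 was at 0 in every IL-2 library and at 5.55 to 14.5 reads in controls. Adgre1 held 0 to 2.32 reads with IL-2 and 2.72 to 7.80 in controls, and Csf1r 0 to 12.8 and 2.09 to 30.9. The CD8 T cell markers Cd8a and Cd8b1 summed to 56.2 to 90.2 reads with IL-2 and 53.4 to 103 in controls, of which Cd8b1 held most.

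Cd2 was the member that rose. Its product is an adhesion receptor in the contact between a T cell and its partner. It had 7616, 6955, 8104 and 6936 normalised reads in IL-2 libraries 41 to 44, against 4890, 4974, 5112 and 5157 in control libraries 45 to 48. Every IL-2 library lay above every control, and the controls lay close together, with a coefficient of variation of 2.45% against 7.63% with IL-2. The means were 7403 ± 565 and 5033 ± 123 (SD, n = 4 each), 1.47-fold higher with IL-2, and the difference was 0.49 ± 0.06 SE (limma adjusted p = 5.80e-05), the 154th largest rise of 5261.

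Cd48, whose product is the ligand of CD2 in the mouse and is itself carried by T cells, also rose. It had 1092 ± 115 normalised reads in the IL-2 group, 1.56-fold the 698 ± 63.1 of the control group (limma adjusted p = 5.65e-04). No gene read here for a cytoplasmic partner of CD2 passed as higher. Cd2ap, an adaptor that binds the CD2 tail, had 848 ± 76.5 and 841 ± 59.7 reads (adjusted p = 0.954, 95% interval of the difference -0.12 to 0.13). Pstpip1, another CD2 tail-binding protein, had 699 ± 94.7 and 633 ± 77.2 (adjusted p = 0.420, interval -0.07 to 0.22). Cd2bp2 had 422 ± 107 and 475 ± 55.2 (adjusted p = 0.444, interval -0.25 to 0.08). Sh3kbp1, an adaptor related to Cd2ap, fell to 3720 ± 251 against 4434 ± 88.1 in controls (adjusted p = 0.00932).

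Cd5 and Cd6 fell, by unequal amounts. Cd5, whose surface level in T cells is set by the strength of receptor signalling and whose tail restrains it, had 2265, 2264, 2261 and 2154 normalised reads in IL-2 libraries 41 to 44, against 2758, 2617, 2931 and 2806 in control libraries 45 to 48. Its IL-2 libraries lay closer together than those of the other 7 genes, with a coefficient of variation of 2.44% against 4.67% in controls, and none reached the control range. The fall was 1.24-fold (difference -0.24 ± 0.05 SE, limma adjusted p = 0.00278), the 466th largest of 5261.

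Cd6, which binds the adhesion molecule ALCAM, had the largest fold difference among the 8 genes. It had 1501, 1274, 1561 and 1319 normalised reads in IL-2 libraries 41 to 44, against 2483, 2319, 2468 and 2850 in control libraries 45 to 48. The groups stood far apart, with means of 1414 ± 139 and 2530 ± 226 (SD, n = 4 each), 1.79-fold lower with IL-2. The difference was -0.61 ± 0.07 SE (limma adjusted p = 2.92e-05), the 42nd largest fall, and only 2.38% of tested genes differed by as much in either direction. Alcam, the gene of the CD6 ligand, had 303 ± 54.6 reads with IL-2, against 214 ± 88.0 in controls (limma adjusted p = 0.125, interval -0.003 to 0.40).

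**Figure D2:**
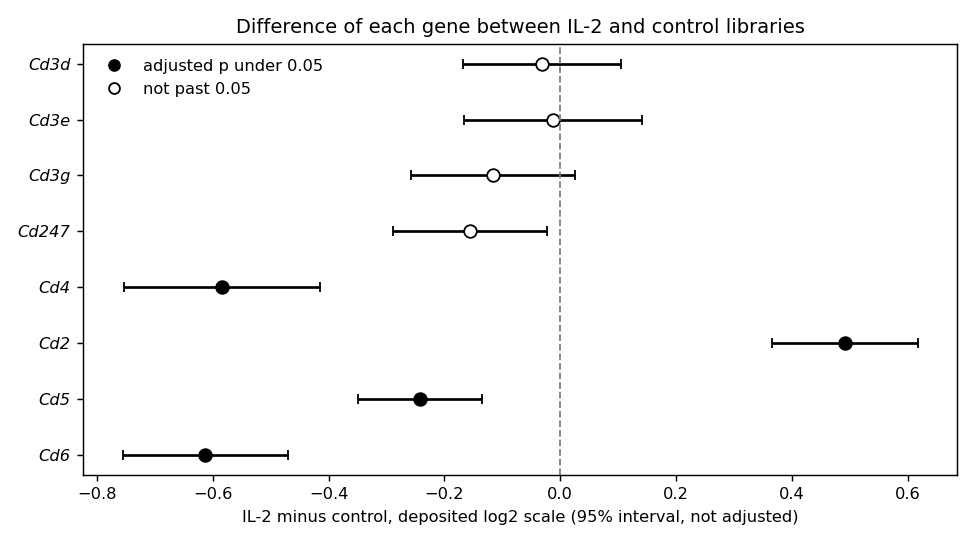
Difference between IL-2 and control libraries on the deposited log2 scale (horizontal axis) for each gene, with the 95% interval from limma before adjustment. Filled points passed an adjusted p of 0.05: Cd4, Cd5 and Cd6 lie below 0 and Cd2 above, while the intervals of Cd3d, Cd3e and Cd3g cross 0 and that of Cd247 ends at -0.02 without passing adjustment.

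Whether a member changed relative to the CD3 chains was asked within each library, where scaling cancels. The log2 ratio of Cd4 to the geometric mean of Cd3d, Cd3e and Cd3g was 0.19, 0.47, 0.14 and -0.09 in IL-2 libraries 41 to 44, against 0.66, 0.86, 0.95 and 0.85 in control libraries 45 to 48. The ratio of Cd2 was 1.66 to 1.80 with IL-2 and 1.01 to 1.21 in controls, and that of Cd6 was -0.74 to -0.55 and 0.03 to 0.25. Cd5 also shifted, with ratios of -0.06 to 0.10 with IL-2 and 0.18 to 0.34 in controls. For each of these 4 genes the groups did not overlap. Cd247 overlapped, at 0.01 to 0.30 with IL-2 and 0.03 to 0.39 in controls.

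The mean shifts of these ratios were -0.65 for Cd4, 0.62 for Cd2, -0.24 for Cd5, -0.77 for Cd6 and -0.13 for Cd247. The first 4 each had a two-sided exact permutation p of 0.0286, the minimum over 70 splits, which became 0.0514 once adjusted over 9 ratios. With 4 libraries per group no smaller p was possible, so the adjusted value does not measure how far apart the groups stood. The exact permutation p of Cd247 was 0.286 (adjusted p = 0.404). The ratio of Cd5 to Cd6, which are neighbours on chromosome 19, was 0.67 ± 0.13 with IL-2 and 0.14 ± 0.11 in controls (SD, n = 4 each; exact permutation p = 0.0286, adjusted 0.0514). This ratio was higher in each of the 4 IL-2 libraries than in any control library.

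**Figure D3:**
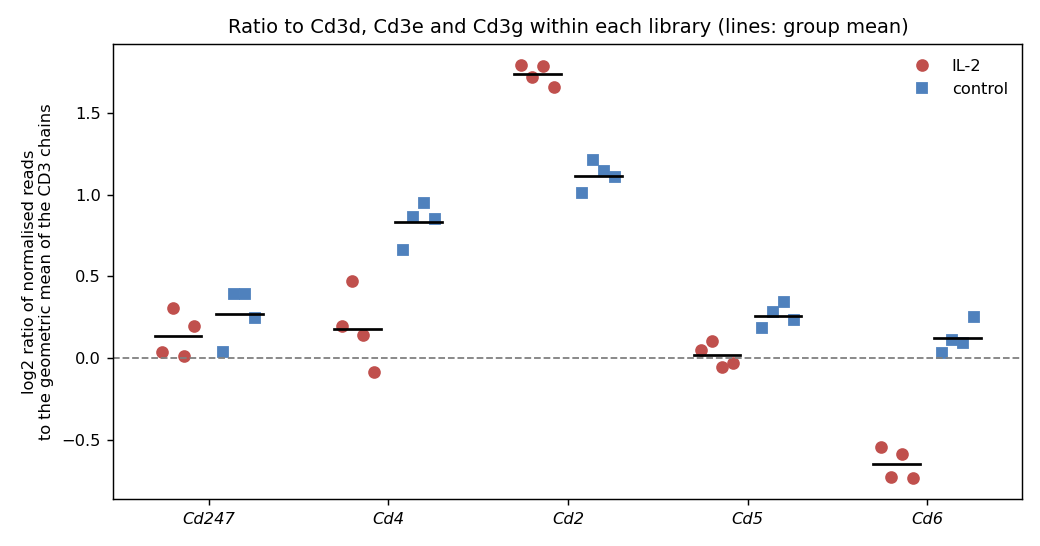
Log2 ratio of normalised reads of Cd247, Cd4, Cd2, Cd5 and Cd6 to the geometric mean of Cd3d, Cd3e and Cd3g in the same library (vertical axis), for IL-2 (red circles) and control (blue squares) libraries, with group means as lines. Cd2 shifts up by 0.62 and Cd4, Cd5 and Cd6 down by 0.65, 0.24 and 0.77, whereas the Cd247 groups overlap.

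Levels of different genes were compared per kilobase of the principal transcript in GENCODE M21. With IL-2, Cd2 was the highest at 6420 ± 490 normalised reads per kilobase, followed by Cd3g (3201), Cd3e (1932), Cd247 (1492), Cd5 (1082), Cd4 (812), Cd3d (730) and Cd6 (466). In controls the order was Cd2 (4365 ± 107), Cd3g (3530), Cd3e (1954), Cd247 (1714), Cd5 (1344), Cd4 (1331), Cd6 (834) and Cd3d (755). With IL-2 the library ranges of Cd4 and Cd3d overlapped, and every other pair of neighbours in the order was apart. In controls the ranges of Cd3e and Cd247, of Cd5 and Cd4, and of Cd6 and Cd3d overlapped. Among the CD3 chains the transcript of Cd3d was the lowest per kilobase in both groups.

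Genes with the most similar profiles over the 8 libraries were found by the root-mean-square difference of centred deposited values. Nearest to Cd4 were Ikzf3 (0.06), Zhx2 (0.07) and Cd74 (0.08), where Ikzf3 encodes the Ikaros-family factor Aiolos and had 1827 ± 143 normalised reads with IL-2, against 3059 ± 314 in controls. Nearest to Cd6 were Icam1 (0.06), Il16 (0.07) and Syt11 (0.07). Il16 encodes a cytokine that binds CD4 and had 1702 ± 94.9 reads with IL-2, against 2919 ± 94.3 in controls. Nearest to Cd2 were Gphn (0.05), Ahcy (0.06) and Mov10 (0.06), and nearest to Cd5 were Ypel3, Aftph and Tgoln1 (0.03, 0.03 and 0.04). With 2 groups, likeness by this measure mostly reflects a shared difference between them.

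Genes next to the members in GRCm38.p6 were read beside them. Lag3, whose product resembles CD4 and also binds MHC class II, lies beside Cd4 and had 78.6 ± 18.2 normalised reads with IL-2, against 216 ± 72.2 in controls. It was too low for the main filter but fell in the limma fit on log2 reads (2.75-fold, adjusted p = 0.00282), where 19.9% of 10777 genes passed. Pou2f1, the gene of the octamer factor Oct-1, lies beside Cd247 and fell to 648 ± 67.1 against 1097 ± 212 in controls (limma adjusted p = 0.00172). Ube4a, beside Cd3g, had 651 ± 120 and 746 ± 109 reads (adjusted p = 0.329). Vps37c, beside Cd5, had 84.3 ± 14.2 and 103 ± 19.97, too low for the main filter.

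The rest of the pathway was read in 7 lists that held 91 tested genes, of which 14 rose (15.4%) and 27 fell (29.7%), beside 16.8% and 14.6% of all tested genes, with a median difference of -0.05. Around the receptor complex, 1 of 4 tested genes rose and 0 fell (median 0.03). The riser was Trat1, which encodes an adaptor that associates with the CD3 and zeta chains, at 1202 ± 278 normalised reads with IL-2, against 448 ± 29.1 in controls (2.68-fold, limma adjusted p = 3.37e-05). The constant genes of the receptor's alpha and beta chains, Trac, Trbc1 and Trbc2, were in this list but had no row under those symbols. Of its 8 listed genes, 5 had a row. Fcer1g, whose product can replace the zeta chain in some T cells, averaged 6.07 reads with IL-2, against 3.21 in controls.

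Among partners and ligands of CD2, CD5 and CD6, 1 of 11 rose and 2 fell (median 0.01), a share called of 27.3% beside the 31.4% of all tested genes. Besides Cd48 and Sh3kbp1, Sla changed: it encodes an adaptor that promotes turnover of the receptor complex, and it fell to 1820 ± 127 reads against 2867 ± 223 in controls (adjusted p = 6.44e-05). Proximal signalling gave 2 rises and 8 falls among 20 (50% called, median -0.11). The falls with the smallest p were Fyb (4588 ± 204 against 6631 ± 276), an adaptor that links the receptor to integrins, Themis (115 ± 31.8 against 347 ± 44.6), a regulator of T cell selection, and Malt1 (1249 ± 54.3 against 1958 ± 288), a protease on the route to NF-kB. Fyn, a Src-family kinase, fell to 2607 ± 138 against 3379 ± 278.

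The kinases and adaptor at the start of the cascade did not pass. Lck, which CD4 carries, had 2218 ± 153 reads with IL-2, against 2462 ± 140 in controls (limma adjusted p = 0.142), Zap70 had 602 ± 49.1 and 703 ± 66.5 (adjusted p = 0.127) and Lat 2148 ± 113 and 2354 ± 126 (adjusted p = 0.175). Ptprc, the gene of the phosphatase CD45, which activates Lck, stood at 17263 ± 918 and 17305 ± 1037 reads (adjusted p = 0.977). The rises in that list were Prkcq, which encodes protein kinase C theta (2375 ± 250 against 1869 ± 202), and Rasgrp1, a Ras activator (3176 ± 242 against 2662 ± 205). Neither passed in every fit that left out a library (highest adjusted p = 0.0505 and 0.0860). The count of 10 for this list became 6 without IL-2 library 43, control library 47 or control library 48.

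Genes that restrain the signal gave 3 rises and 1 fall among 14 (28.6% called, near the share of all tested genes, median 0.04). The counts were 3 and 3 after quantile normalization, and 1 and 2 with the stricter filter. Socs1 (608 ± 153 against 210 ± 44.1), which inhibits cytokine receptor kinases, and the phosphatase genes Ptpn6 (1671 ± 149 against 1239 ± 99.99) and Ptpn2 (595 ± 48.7 against 437 ± 44.4) rose. Ptpn22, a phosphatase that acts on Lck, fell to 1159 ± 73.9 against 1531 ± 148. Receptor-induced genes split evenly, with 4 rises and 4 falls among 14 (57.1% called, median -0.07): Myc (921 ± 171 against 367 ± 57.5), Tnfrsf9 and Tnfrsf4 led the rises, and Icos (658 ± 206 against 1551 ± 221), Cd44 and Irf4 the falls. Nr4a1, whose transcript follows receptor engagement, had 901 ± 312 and 645 ± 148 reads (limma adjusted p = 0.155). Among the other Nr4a and Egr genes of this list, Egr1 passed as lower (332 ± 68.3 against 535 ± 96.8, limma adjusted p = 0.00808). Nr4a3 and Egr3 did not pass (limma adjusted p = 0.573 and 0.288). Nr4a2 (140 ± 85.1 against 44.9 ± 18.4) and Egr2 (113 ± 29.6 against 204 ± 21.1) were too low for the main filter.

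Transcription factors of T cell identity and of the Cd4 gene gave 1 rise and 7 falls among 16 (50% called, median -0.13). The falls with the smallest p were Tcf7 (862 ± 139 against 2584 ± 298), Satb1 (1522 ± 112 against 2860 ± 302) and Myb (235 ± 25.2 against 491 ± 85.6). Runx3, known as a repressor of Cd4 in CD8 T cells, was the gene that rose, at 782 ± 49.8 reads with IL-2, against 539 ± 61.9 in controls (limma adjusted p = 0.00189). Zbtb7b, which encodes the factor ThPOK that keeps Cd4 expressed in helper cells, had 1080 ± 104 and 1092 ± 76.1 (adjusted p = 0.909, interval of the difference -0.14 to 0.12). Other surface proteins of T cells gave 2 rises and 5 falls among 12 (58.3% called, median -0.11). Thy1 (2793 ± 158 against 1497 ± 273) and Tnfrsf18 rose, and Il7r (1361 ± 247 against 2036 ± 219), Cd28 and Ly6a had the smallest p among the falls.

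**Figure D4:**
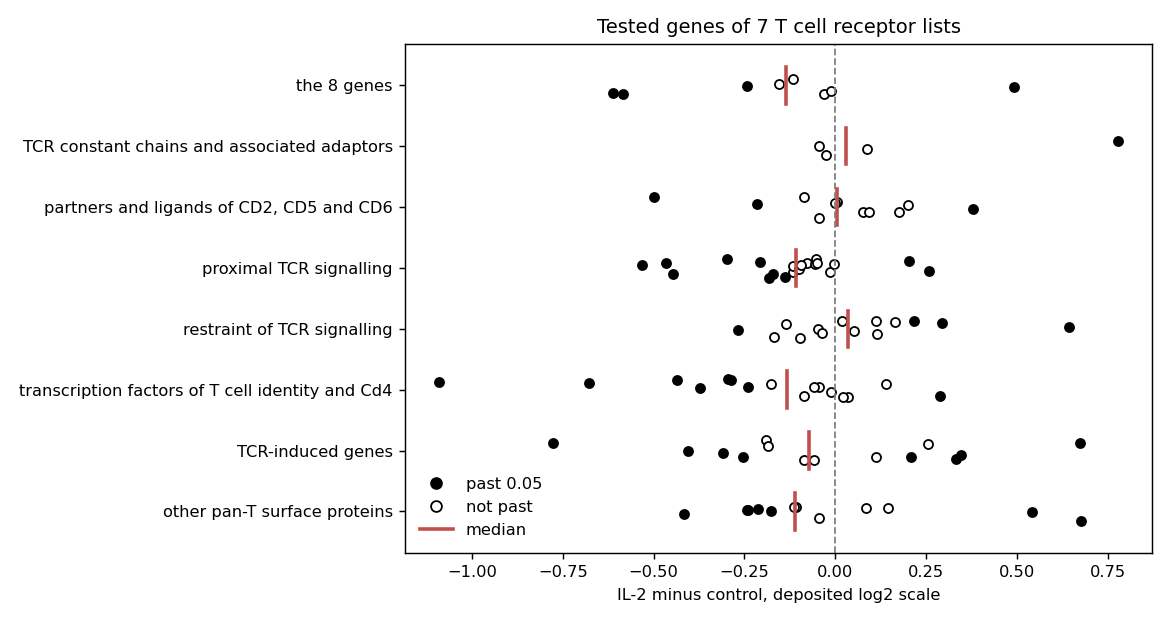
Differences between IL-2 and control libraries on the deposited log2 scale (horizontal axis) of every tested gene in 7 lists, below the 8 genes of the receptor complex, coreceptor and tuning proteins; filled points passed an adjusted p of 0.05 and red bars are medians. List medians lie between -0.13 and 0.04, and each list with more than 4 tested genes holds genes that passed in both directions.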

How the data were processed

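RNA from flow-sorted spleen Tregs was made into stranded total RNA libraries, 4 labelled IL-2 and 4 labelled Ctrl. The authors deposited 1 table of log2 values after a variance-stabilising transformation. Per the submitters' processing notes, Salmon, DESeq2 and build GRCm39 were used; their order and settings, the annotation and any filters are not given here. Columns were matched to samples by library number.

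The lowest value, 8.69, stands for 0 reads and is enough to invert that transformation in its parametric form, which gave normalised reads. Of 40 common low values, 34 were whole multiples of 1 read within 0.001, and the geometric mean of the size factors was 1.000; few other values were whole, so no count test was run. Salmon splits shared reads by estimation.

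Genes with at least 4 of 8 libraries at least 1 above the lowest value (5261) were fitted with limma 3.58.1 (eBayes with trend, no covariates, R 4.3.3), and p-values were adjusted by Benjamini-Hochberg over all of them. The step was tested on simulated data. Folds are ratios of group means of normalised reads; intervals of ratios come from a limma fit on log2 of reads plus 5 for genes with at least 10 in at least 4 libraries (10777). Ratios and marker sums were compared with two-sided exact permutation over 70 splits. Alternatives were other filters, that log2-read fit, quantile and median scaling, limma without trend, robust or weighted, and leaving out each library; a Ddx3y covariate was added after seeing the data. Transcript lengths were those of the GENCODE M21 principal transcripts. Other tools were numpy 2.4.6 and pandas 2.3.3 in Python 3.11.15, with matplotlib 3.10.9 for figures.

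The members and lists were chosen with earlier results of these data known. From each list, the 3 genes with the smallest adjusted p in each direction were named, and for each member that passed, the 3 nearest profiles. Alcam, Cd2ap, Cd2bp2, Pstpip1, Fcer1g, Fyn, Lck, Zap70, Lat, Zbtb7b, Ptprc, the Nr4a and Egr genes and the genes next to members were named after their values were seen.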

Additional observations from a re-analysis of the deposited data

Results flagged for a closer look

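Within a group of 4 libraries, a value far from the other 3 was looked for in 52 sets of member levels, ratios and marker sums. A rate of 1 in 20 would flag 2.6 of 52, and 4 were found. That rate does not hold for sums near 0, where 1 library alone above 0 is always flagged. The sets also share genes and libraries, so the 4 cannot be judged against the 2.6. Cd5 in IL-2 library 44 stood at 2154 normalised reads, below the other 3 IL-2 libraries at 2261 to 2265, and the difference of Cd5 without that library was -0.23 (limma adjusted p = 0.00682). The other 3 rest on very few reads. The gamma-delta T cell marker sum was 4.64 in IL-2 library 43 and 0 in the rest of its group. Only 1 of its 5 listed genes, Sox13, had a row, so this sum says little about such cells. The neutrophil marker sum was 0.948 in IL-2 library 41 and 1.04 in control library 47, against 0 in the other libraries.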

How the results depend on the processing

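Across 17 alternatives, Cd2, Cd4, Cd5 and Cd6 kept their direction and passed an adjusted p of 0.05 in each, with differences of 0.40 to 0.55, -0.72 to -0.51, -0.31 to -0.22 and -0.84 to -0.57 on the scale of the fit. With the Ddx3y covariate 4 members passed as well. Cd247 passed in 3 of them. The number of members past the threshold ran from 4 to 5. The count over all genes was 1650 of 5261 and became 737 of 1519 with the stricter filter, where fewer genes were tested, as in the identity factor list (5 of 10 called, against 8 of 16) and the receptor-induced list (4 of 5, against 8 of 14); leaving out a library gave 1378 to 1535. No filter on low values gave 2089 of 14904 genes. When 1 library was left out, the near-zero differences of Cd3d and Cd3e ran from -0.065 to 0.013 and from -0.054 to 0.0404: Cd3d turned without IL-2 library 42, and Cd3e without IL-2 library 44, control library 47 or control library 48. The shift of the Cd3d to Cd3e ratio, -0.03, ran from -0.137 to 0.0742. The marker differences of gamma-delta T cells (0 to 1.55 reads) and neutrophils (-0.261 to 0.237 reads) rest on a few reads. No other member, ratio or marker sum changed direction. The balance over all genes, 883 higher and 767 lower, became 823 and 830 after quantile normalization and 801 and 867 after median centring, and the restraint list, 3 higher and 1 lower, became 3 and 3 after quantile normalization and 1 and 2 with the stricter filter. No paired analysis was possible because the groups share no replicate numbers. Differences near the lowest value are compressed, so falls of genes with few reads, such as Lag3, lay outside the main fit.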
